A study of Sus scrofa with 4 samples.

Results

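The genes of the inhibin and activin subunits (INHA, INHBA, INHBB), of the activin-binding follistatins (FST, FSTL3) and of anti-Müllerian hormone and its receptor (AMH, AMHR2) were described across the granulosa cells of porcine antral follicles. They were chosen by name as 7 of the 29884 rows of the deposited count table, and all 7 passed the filter on low counts. Granulosa cells are the somatic cells that line the follicle. Flow cytometry of the cell cycle was run on some of the cells, and the rest were grouped by how many were in G0/G1, the stage before DNA synthesis. RNA was sequenced from 2 libraries labelled high G0/G1 distribution and 2 labelled low G0/G1 distribution. No treatment, genotype or culture is labelled in any of them. Breed, age, follicle size and the number of animals or follicles in a library were not stated in the labels. P-values therefore measure the spread between these libraries, which may be technical.

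Inhibins are secreted dimers of the alpha subunit with a beta A or beta B subunit, and they restrain the release of follicle-stimulating hormone by the pituitary. Dimers of beta subunits alone are the activins, which have the opposite action and also signal within the follicle through type II and type I receptors and the mediators SMAD2 and SMAD3. Follistatin and FSTL3 bind activins and block their access to the receptors. Anti-Müllerian hormone is made by granulosa cells of growing follicles, where it lowers their sensitivity to follicle-stimulating hormone, and it acts through AMHR2 and the SMAD1, SMAD5 and SMAD9 branch.

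The 4 libraries held between 27442850 and 32674921 counts, and a count of 0 allows at most 0.0918 to 0.109 CPM before scaling. Replicates differed by more than counting noise in 71.9% of tested genes for the high pair and 65.2% for the low pair (exact binomial test of each gene, unadjusted). The granulosa markers FSHR, FOXL2, NR5A2, HSD17B1, GJA1 and CYP19A3 were present in every library, while CYP19A1 had no count in any. These markers also differed between the groups, in both directions and without passing the test. FSHR averaged 3.45-fold, FOXL2 1.98-fold and HSD17B1 1.93-fold more in the low libraries. GJA1 averaged 3.20-fold, CYP19A3 2.14-fold and NR5A2 1.95-fold more in the high ones. Groups did not overlap for any of these, as was so for 56.6% of all genes tested. The remaining listed granulosa marker, CYP19A2, had 1.05 to 2.51 CPM, and its groups overlapped. Low replicate 2 stood apart in stromal and smooth muscle markers and in the theca marker CYP17A1. The summed level of 6 stromal and smooth muscle markers was 1551 CPM there and between 52.6 and 123 CPM in the other libraries. CYP17A1, an enzyme of theca cells, stood at 51.5 CPM there and at 0.125 to 1.02 CPM elsewhere. Of the other theca genes listed, INSL3 had 17.6 and 30.0 CPM in the high and 75.3 and 260 CPM in the low libraries, and LHCGR, which mature granulosa cells also express, 1001 and 277 CPM against 148 and 95.5 CPM. Summed over 5 markers, endothelial genes had 12.9 and 40.3 CPM in the high and 6.74 and 49.1 CPM in the low libraries. Leukocyte genes, also 5, had 1.21 and 2.63 CPM in the high and 0.596 and 2.46 CPM in the low libraries. In both sums high replicate 2 was near low replicate 2, and the endothelial gene KDR was highest in high replicate 2 (29.4 CPM). The 6 oocyte markers summed to 6.43 to 11.5 CPM. Nearly all of that sum was GDF9, at 6.396 to 11.5 CPM, while ZP2, ZP4 and FIGLA were at 0 in all libraries. Mitochondrially encoded genes took 1.36% to 1.65% of counts in the high and 1.89% to 2.11% in the low libraries. Their part in the results below was not tested, so every fold change of the 7 genes is given also without low replicate 2. In such bulk samples, fewer cells that express a gene and less RNA per cell cannot be told apart.

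Group means lay farthest apart for the receptor AMHR2 and the beta B subunit INHBB, in opposite directions. AMHR2 averaged 2.57-fold more in high than in low cells, and INHBB averaged 3.26-fold more in low than in high cells. AMH and the row named INHBA also averaged more in the low libraries, while INHA, FST and FSTL3 averaged 1.29-fold, 1.21-fold and 1.41-fold more in the high ones. By edgeR's quasi-likelihood test 0 of the 7 genes passed the threshold at an adjusted p under 0.05, as did 0% of the 14352 genes tested. At an unadjusted p under 0.05 there were 4 of the 7, against 20.7% of all genes tested (9.92% higher, 10.8% lower). The 4 were AMHR2, higher in high cells, and INHBB, AMH and INHBA, lower in high cells. The 7 were chosen with earlier results of these data known, so such shares are description only. For 2 of the 7 both high libraries exceeded both low ones (26.8% of all genes), and for 3 they were below (29.8%), so that groups did not overlap in 5 of the 7, against 56.6% of all genes. DESeq2 called 2 of the 7 (AMHR2 and INHBB) and 10.4% of all genes, and limma-voom called 0.

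**Figure D1:**
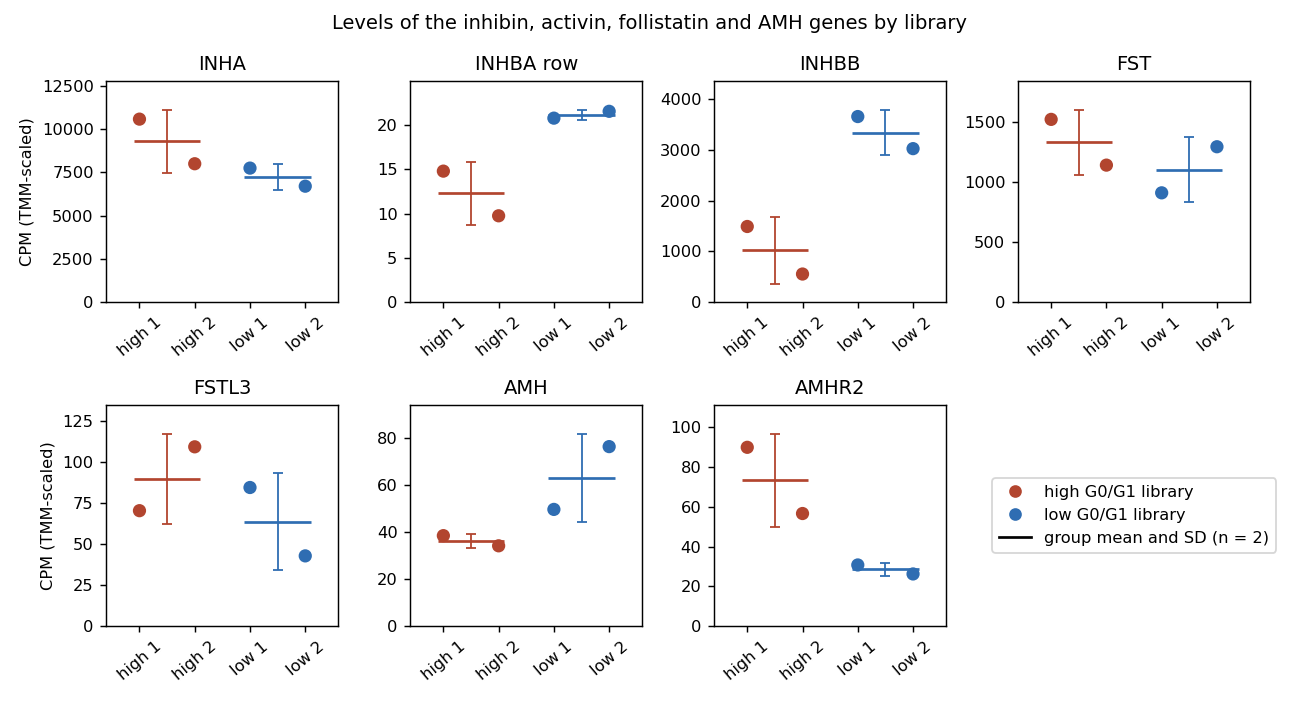
Level of each gene in CPM (vertical axis, from 0, a scale of its own in each panel) in the 2 high (red) and 2 low (blue) G0/G1 libraries, with the mean and SD of each group (n = 2). The groups do not overlap for INHA, INHBA, INHBB, AMH and AMHR2, and they overlap for FST and FSTL3.

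INHA encodes the alpha subunit, found in all inhibins and in no activin (chromosome 15, 121581847 to 121586020 in Sscrofa11.1). The high libraries had 10570 CPM (replicate 1) and 7997 CPM (replicate 2), and the low libraries 7745 and 6701 CPM. High replicate 1 held the highest value, and high replicate 2 lay only just above low replicate 1, closer to it than to the other high library. Means were 9284 ± 1819 CPM in the high and 7223 ± 738 CPM in the low group (SD, n = 2 each). The log2 fold change of high over low was 0.36 ± 0.29 (SE, 95% interval -0.37 to 1.09, edgeR adjusted p = 0.506). With 1 library left out it was 0.14 (high replicate 1), 0.55 (high replicate 2), 0.53 (low replicate 1) or 0.27 (low replicate 2). At 193347 to 315274 reads a library, counting error is small for this gene: the 95% Poisson interval of the lowest value ran from 6671 to 6731 CPM. Such intervals cover only the counting error of reads and leave out all other variation. Reads also need not count single molecules.

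The beta B subunit, which pairs with the alpha subunit in inhibin B and with itself in activin B, is encoded by INHBB (chromosome 15, 30999994 to 31004405). INHBB stood at 1491 and 557 CPM in high replicates 1 and 2, and at 3652 and 3021 CPM in low replicates 1 and 2. Both low libraries were well above either high library, and the high libraries differed 2.68-fold from each other. For comparison, the median gene averaging at least 1 in log2 CPM differed 1.30-fold between the high replicates and 1.19-fold between the low ones. Group means were 1024 ± 661 CPM for high and 3336 ± 446 CPM for low cells (SD, n = 2 each). High over low, this is a log2 fold change of -1.70 ± 0.51 (SE, 95% interval -3.00 to -0.41, edgeR adjusted p = 0.190), which was -1.83 without low replicate 2. Leaving out high replicate 1 gave -2.59 and leaving out high replicate 2 gave -1.16. DESeq2 called it with all 4 libraries (adjusted p = 0.0133), while limma-voom gave an adjusted p of 0.151.

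The row named INHBA, the symbol of the beta A subunit, needs care before its values are read. RefSeq places this symbol on chromosome 12, from 53115379 to 53117128, with a span of 1750 bases and the gene type "other", which only 3 of 30371 annotated genes carry. The interval lies between NAA38, which ends at 53112487, and CHD3, which starts at 53135767. In the human genome INHBA is a neighbour of GLI3 and SUGCT, and in the pig annotation those genes lie on chromosome 18, GLI3 ending at 52697906 and SUGCT starting at 53639588. The annotation behind the counts is not named, so it cannot be told whether the row counts transcripts of the beta A gene.

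The INHBA row had 441 and 278 reads (14.8 and 9.75 CPM) in high replicates 1 and 2, and 662 and 621 reads (20.8 and 21.5 CPM) in low replicates 1 and 2. Its low libraries lay close together and above both high ones. The 95% Poisson interval of the lowest value ran from 8.64 to 11.0 CPM. Its log2 fold change was -0.78 ± 0.31 (SE, 95% interval -1.57 to -0.0032, edgeR adjusted p = 0.240), and -0.75 without low replicate 2. It was -1.12 without high replicate 1 and -0.51 without high replicate 2. The neighbouring gene NAA38, which encodes a subunit of an acetyltransferase of protein N-termini, had a log2 fold change of -0.82 ± 0.23 (SE), with 15.3 and 15.02 CPM in the high and 27.7 and 25.9 in the low libraries. CHD3, a chromatin remodeller on the other side, had -0.31 ± 0.21 (SE). Whether reads of the neighbouring region entered the INHBA row was not tested.

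**Figure D2:**
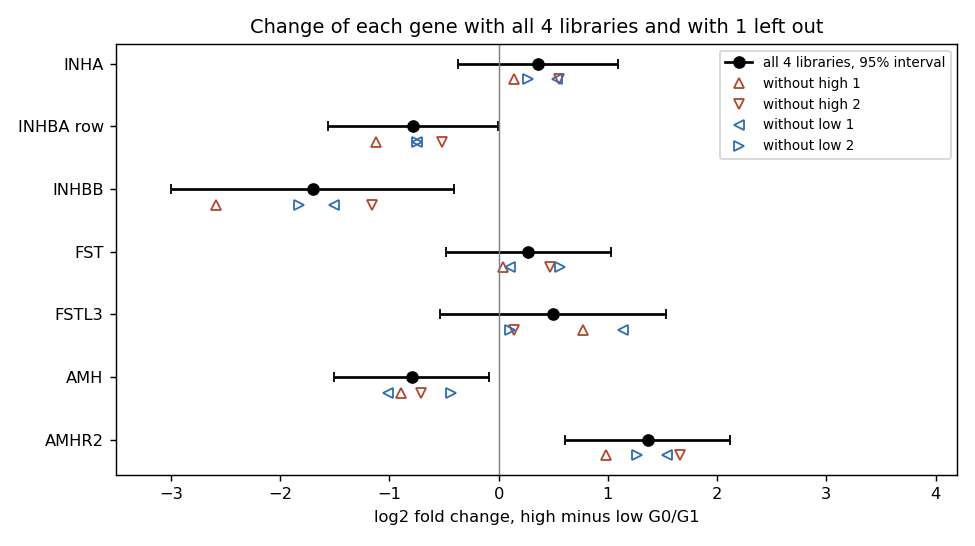
Log2 fold change of high over low G0/G1 cells (horizontal axis) for each gene, with the 95% interval of the edgeR fit to all 4 libraries (black) and the value with 1 library left out (open symbols). INHBB ranged from -2.59 to -1.16 and AMHR2 from 0.98 to 1.66 with 1 library left out. No gene changed sign, which is largely fixed in advance where groups do not overlap.

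Follistatin is encoded by FST (chromosome 16, 32806341 to 32811382) and binds activin almost irreversibly. It stood at 1526 and 1144 CPM in high replicates 1 and 2, and at 913 and 1298 CPM in low replicates 1 and 2. Groups overlapped, with low replicate 2 above high replicate 2. The means were 1335 ± 270 and 1105 ± 272 CPM for high and low (SD, n = 2 each), so that the difference between the groups was less than the SD within either. On the log2 scale it was 0.27 ± 0.30 (SE, 95% interval -0.48 to 1.03, edgeR adjusted p = 0.631). With 1 library left out it was 0.04 (high replicate 1), 0.47 (high replicate 2), 0.10 (low replicate 1) or 0.56 (low replicate 2).

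FSTL3 encodes a follistatin-like secreted protein that also binds activins (chromosome 2, 77656655 to 77662608). It stood at 70.2 and 109 CPM in the high and at 84.3 and 42.7 CPM in the low libraries. The groups overlapped, and high replicate 2 was highest and low replicate 2 lowest. The log2 fold change of 0.50 ± 0.41 (SE, 95% interval -0.53 to 1.53, edgeR adjusted p = 0.518) became 0.11 when low replicate 2 was left out and 1.14 when low replicate 1 was. Leaving out high replicate 1 gave 0.77 and leaving out high replicate 2 gave 0.15. The annotated span of FSTL3 shares 973 bases with that of PRSS57, a serine protease gene of neutrophils, which had 41 to 100 reads a library against 1232 to 3108 for FSTL3.

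Within a library, the ratio of 2 genes does not depend on how libraries are scaled, and its change between groups needs no gene length. Relative to the beta subunits, INHA counts were higher in each high library than in each low one. The log2 ratio of INHA to the sum of INHBA and INHBB was 2.81 and 3.82 in the high and 1.08 and 1.14 in the low libraries, a difference of 2.21 (2.24 without low replicate 2). The log2 ratio of FST to the same sum was 0.02 and 1.01 in the high and -2.01 and -1.23 in the low libraries, a difference of 2.13 (2.52 without low replicate 2). With INHBB alone as the denominator these differences were 2.22 and 2.15, so the doubtful INHBA row carried little weight in them. INHBB counts enter all of these ratios, so they are not independent of the INHBB difference above. The log2 ratio of the INHBA row to INHBB was -6.65 and -5.83 in the high and -7.46 and -7.13 in the low libraries. No group overlapped another in any of these ratios, and each had p = 0.333 in an exact two-sided permutation test over the libraries, the smallest that 2 against 2 can give. The ratio itself is of read counts and not of molecules, since transcript lengths were not used here.

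**Figure D3:**
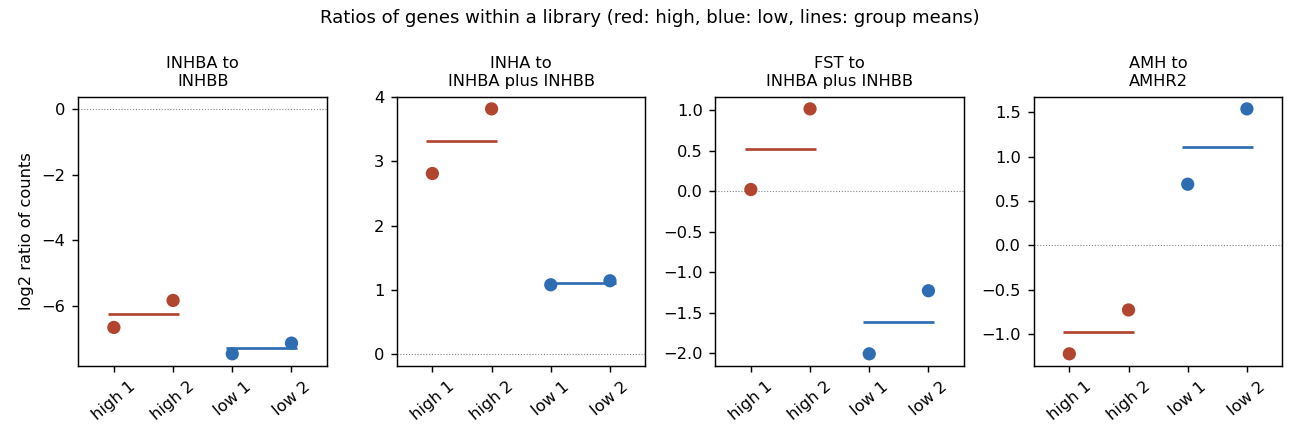
Log2 ratio of read counts (vertical axis) for 4 pairs of genes or sums in each of the 2 high (red) and 2 low (blue) G0/G1 libraries, with lines at the group means. Ratios of INHA and of FST to INHBA plus INHBB, and of the INHBA row to INHBB, are above in the high libraries. The AMH to AMHR2 ratio is above in the low ones.

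AMH, the gene of anti-Müllerian hormone (chromosome 2, 76415564 to 76418315), stood at 38.4 and 34.1 CPM in high replicates 1 and 2, and at 49.6 and 76.3 CPM in low replicates 1 and 2. Both high libraries lay below both low ones, and low replicate 2 was 1.54-fold above low replicate 1. Group means were 36.3 ± 3.05 CPM for high and 62.9 ± 18.9 CPM for low cells (SD, n = 2 each). This gave a log2 fold change of -0.79 ± 0.28 (SE, 95% interval -1.50 to -0.09, edgeR adjusted p = 0.214). Without low replicate 2, the library with the high stromal markers, it was -0.44, and it was -1.01 to -0.71 when 1 of the others was left out. The gene next to AMH, SF3A2, which encodes a splicing factor subunit, ends 662 bases before it and had a log2 fold change of -0.61 ± 0.24 (SE). The other neighbour, JSRP1, starts 192 bases after AMH and had 1 to 28 reads a library. Whether reads that run past the end of a neighbour entered the AMH count was not tested.

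AMHR2, the type II receptor through which anti-Müllerian hormone signals (chromosome 5, 18642212 to 18648859), had its higher levels in the group where those of its ligand were lower. It stood at 89.9 and 56.6 CPM in high replicates 1 and 2, and at 30.7 and 26.2 CPM in low replicates 1 and 2. The lower high library was still well above both low libraries, which lay close together. Means were 73.2 ± 23.5 CPM for high and 28.5 ± 3.20 CPM for low cells (SD, n = 2 each). The log2 fold change was 1.36 ± 0.30 (SE, 95% interval 0.61 to 2.12, edgeR adjusted p = 0.162). With 1 library left out it ranged from 0.98 without high replicate 1 to 1.66 without high replicate 2, and was 1.26 without low replicate 2. DESeq2 called AMHR2 (adjusted p = 0.00457) and limma-voom did not (adjusted p = 0.143).

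The log2 ratio of AMH to AMHR2 counts was -1.23 and -0.73 in the high and 0.69 and 1.54 in the low libraries, a difference of -2.09 between group means. Its groups did not overlap, with p = 0.333 in the exact two-sided permutation test, again the smallest possible. Without low replicate 2 the difference was -1.67.

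A list of 38 other genes of the pathway covered receptors, SMAD mediators, inhibitors, convertases that cleave the precursor proteins, further activin subunits, follistatin-like genes and transcription factors known to act on inhibin, follistatin or AMH genes. Of these, 34 were tested, 19 with a positive and 15 with a negative log2 fold change. By edgeR 0 passed the threshold. At an unadjusted p under 0.05 there were 5 higher and 2 lower, 20.6% of the 34, near the 20.7% of all genes. Groups did not overlap in 18 of the 34 (11 higher, 7 lower), or 52.9%, below the 56.6% of all genes. The median log2 fold change was 0.19, against -0.01 over all genes tested. As a whole the list therefore differed from the background by little. The 4 genes not tested were ACVR1C with 0 or 1 read a library, the other activin subunits INHBC and INHBE with 0 to 4, and FSTL5 with 0.

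Among receptors and mediators of the AMH branch, BMPR1B and SMAD9 had the clearest separation. BMPR1B, a type I receptor that can pair with AMHR2, stood at 220 and 233 CPM in the high and at 92.4 and 74.3 CPM in the low libraries. Its log2 fold change was 1.44 ± 0.22 (SE, edgeR adjusted p = 0.130), and 1.31 without low replicate 2. SMAD9, which encodes a receptor-activated SMAD of the BMP and AMH branch, stood at 30.1 and 44.1 CPM in the high and at 5.30 and 4.37 CPM in the low libraries. For SMAD9 the log2 fold change was 2.94 ± 0.32 (SE, edgeR adjusted p = 0.125), and 2.83 without low replicate 2. Of the rest of this branch, ACVR1 and SMAD5 had overlapping groups, and BMPR1A and SMAD1 did not. The other type I receptors ACVR1 (1.31 ± 0.62, SE) and BMPR1A (0.34 ± 0.21) and the mediators SMAD1 (0.65 ± 0.35) and SMAD5 (0.05 ± 0.21), named here outside the rule for their place in the branch, had smaller or less certain log2 fold changes. The ACVR1 value rests on high replicate 2, as its levels were 25.01 and 93.2 CPM in the high and 26.2 and 21.6 CPM in the low libraries. It was 0.07 without that library, and 1.96 without high replicate 1. Without high replicate 1 the log2 fold change was 3.18 for SMAD9 and 1.48 for BMPR1B.

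On the activin side, ACVR2A, a type II receptor that binds activins, stood at 11.4 CPM in both high libraries and at 5.11 and 4.19 CPM in the low ones. Its log2 fold change was 1.29 ± 0.34 (SE, edgeR adjusted p = 0.175), and 1.17 without low replicate 2. The other tested activin receptors, ACVR2B (0.10 ± 0.25, SE) and ACVR1B (1.05 ± 0.55), named outside the rule, overlapped between groups. ACVR1B had 0.23 without high replicate 2. The mediators SMAD2 (-0.19 ± 0.38, SE) and SMAD3 (0.46 ± 0.36), also named outside the rule, overlapped between groups. BAMBI, a membrane pseudoreceptor that dampens signalling of the family, stood at 7.11 and 6.88 CPM in the high and at 19.8 and 9.67 in the low libraries, with a log2 fold change of -1.08 ± 0.43 (SE, edgeR adjusted p = 0.248). Leaving out low replicate 1 gave -0.40 and leaving out low replicate 2 gave -1.49. PCSK5, a convertase that cleaves precursors of secreted proteins, stood at 34.0 and 22.4 CPM in the high and at 18.1 and 10.6 in the low libraries, a log2 fold change of 0.98 ± 0.38 (SE, edgeR adjusted p = 0.237), which was 0.65 when low replicate 2 was left out, 0.64 when high replicate 1 was and 1.48 when low replicate 1 was.

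FSTL4, a follistatin-like gene by sequence that is not established as an activin antagonist, had the largest difference of the tested list in either direction. It had 3.05 and 6.56 CPM in the high and 51.9 and 43.0 in the low libraries. On the log2 scale the difference was -3.30 ± 0.44 (SE, edgeR adjusted p = 0.125), and -3.41 without low replicate 2. Without high replicate 1 the difference was -2.86. FST and FSTL3 did not share this pattern, as their groups overlapped.

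**Figure D4:**
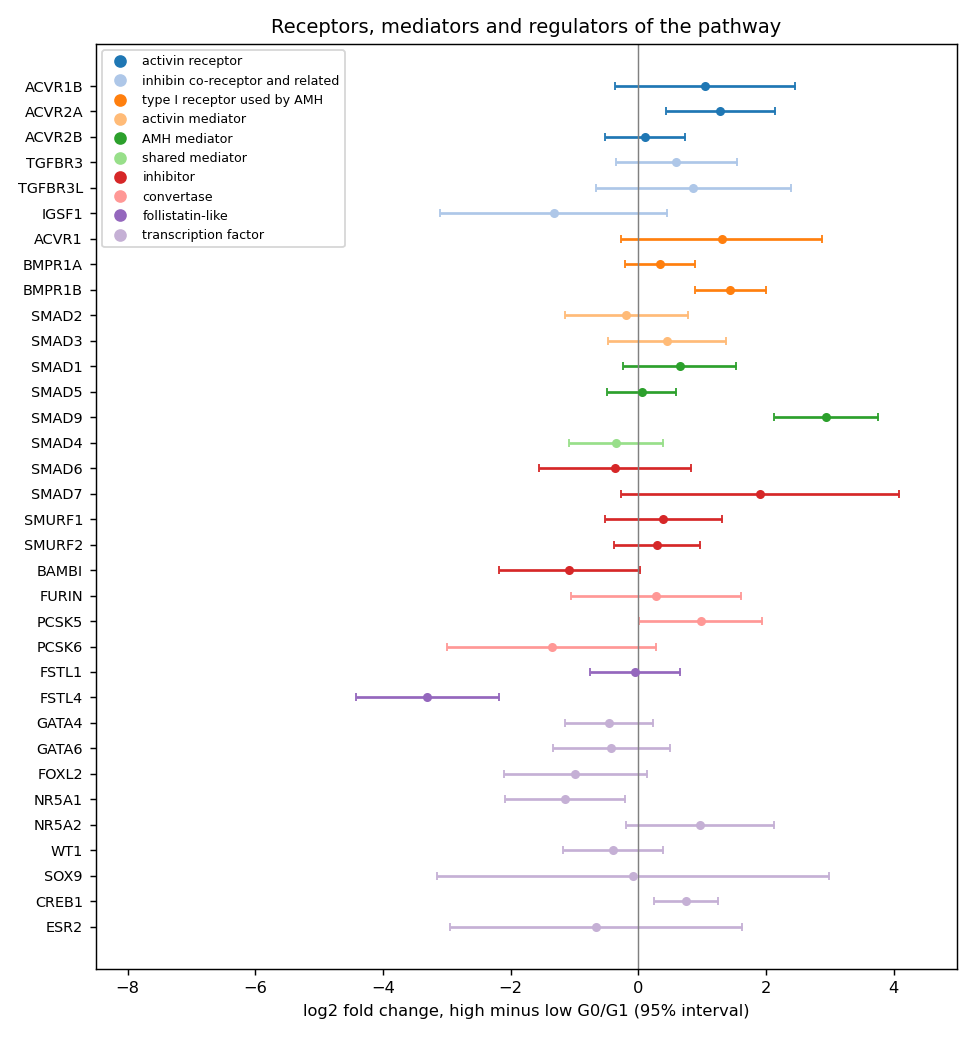
Log2 fold change of high over low G0/G1 cells (horizontal axis) with 95% intervals of the edgeR fit for the 34 tested pathway genes, coloured by role. SMAD9 and FSTL4 lie farthest from 0, and most other intervals include 0.

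Transcription factors known to act on these genes were tested in 9 cases, 2 with a positive and 7 with a negative log2 fold change. Over all genes tested, 7086 were positive and 7266 negative. Among the 7, SOX9 had 3 to 51 reads a library and ESR2 3 to 16, both named outside the rule. These changed sign, SOX9 to 0.83 without high replicate 1 and ESR2 to 0.03 without high replicate 2. NR5A1, or steroidogenic factor 1, which binds gonadal promoters including that of AMH, stood at 170 and 85.0 CPM in the high and at 290 and 274 CPM in the low libraries. Its log2 fold change was -1.14 ± 0.37 (SE, edgeR adjusted p = 0.200), and -1.18 without low replicate 2. Leaving out high replicate 1 gave -1.74, and leaving out high replicate 2 gave -0.73. FOXL2, a granulosa factor named outside the rule, had -0.99 with all libraries. For FOXL2 it was -1.77 without high replicate 1 and -0.48 without high replicate 2. Leaving out low replicate 1 gave -1.03 and leaving out low replicate 2 gave -0.87. CREB1, a mediator of cyclic AMP that acts on the INHA promoter, stood at 73.3 and 80.7 CPM in the high and at 44.1 and 47.9 CPM in the low libraries. For CREB1 the log2 fold change was 0.74 ± 0.20 (SE, edgeR adjusted p = 0.176), and 0.82 without low replicate 2. DESeq2 called 4 of the 34 higher (SMAD9, BMPR1B, ACVR2A and CREB1) and 1 lower (FSTL4), that is 5 of the 34, against 10.4% of all genes.

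**Figure D5:**
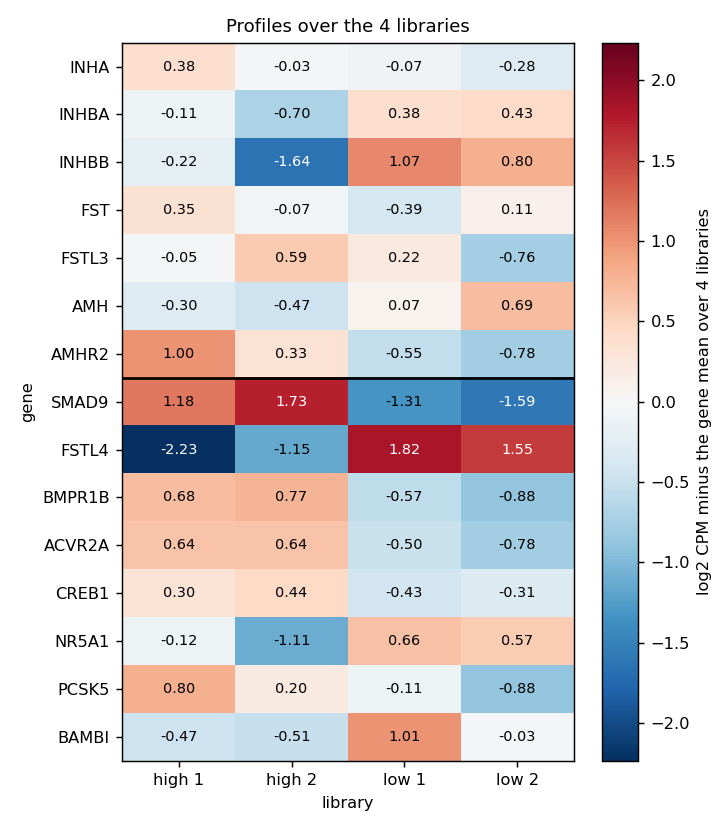
Log2 CPM of each gene minus its own mean over the 4 libraries (colour and printed value), for the 7 genes (above the line) and the 8 named pathway genes (below it). INHBB and NR5A1 are lowest in high replicate 2, at -1.64 and -1.11, while AMHR2, SMAD9, BMPR1B and ACVR2A are positive in both high libraries.

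Genes with the nearest profile were sought for each of the 7 among 11817 genes averaging at least 1 in log2 CPM, by the root mean square distance of log2 CPM values, each centred on its gene's mean over the 4 libraries. With 4 libraries many genes lie close by, so these are descriptions. For INHBB the nearest were SEC14L2, ZWILCH and WDR62, at distances of 0.03, 0.03 and 0.03, and 17 genes lay within 0.1. ZWILCH encodes a kinetochore protein and WDR62 a protein of the spindle poles, and ZWILCH stood at 15.3 and 5.86 CPM in the high and 39.3 and 31.3 CPM in the low libraries. For AMHR2 they were JMJD1C, JPH2 and CCDC186 at 0.07 to 0.08, with 6 genes within 0.1. For AMH they were DCLRE1B, NFIX and SP140 at 0.05 to 0.06, with 21 genes within 0.1.

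The nearest to FSTL3 were the glucose transporter gene SLC2A3, the cell cycle kinase gene WEE1 and ZFP36, which encodes a protein that destabilises messenger RNA. SLC2A3 lay at a distance of 0.02, with 395 and 611 CPM in the high and 462 and 241 CPM in the low libraries, and 6 genes lay within 0.1. FST was nearest to NCKAP5L, BAD and TMEM170A at 0.02 to 0.03, with 58 genes within 0.1. INHA was nearest to AKAP2, EMC2 and FAM133B at 0.01 to 0.03, and the INHBA row to LST1, RPS6KA4 and TAF6L at 0.0069 to 0.02. Within 0.1 of these lay 191 genes for INHA and 152 for the INHBA row, the most of the 7 profiles.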

How the data were processed

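RNA sequencing of 4 granulosa cell libraries was analysed, 2 from cells with a high and 2 from cells with a low share in G0/G1. The values are integer read counts by gene symbol, deposited as 1 table for the series and used here as raw counts. Per the submitters' processing notes, HISAT2 was the aligner and Sscrofa11.1 the assembly. Which counter, annotation release, strand setting or filters were applied is not given in the sources used here. How reads of overlapping or neighbouring genes were assigned therefore cannot be told. Titles tied each column to its sample. Replicates are numbered in the order of listing, and the numbers pair nothing.

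Counts of all 4 libraries were fitted by quasi-likelihood (glmQLFit and glmQLFTest of edgeR 4.0.16, run in R 4.3.3) after TMM scaling and filterByExpr (count of at least 10, total of at least 15), without covariates, with Benjamini-Hochberg adjustment over the 14352 genes tested and a threshold of 0.05. Standard errors are the size of the log2 fold change divided by the root of F, and 95% intervals use the fit's degrees of freedom. CPM is computed on TMM-scaled library sizes, and log2 CPM uses a prior count of 2. The fit was checked on simulated counts, where it recovered 18% of changes set at 2-fold and 82% of those set at 4-fold. Most 2-fold changes were thus missed there. The fit made 154 calls on the simulated counts, with 9 unchanged genes among them, against 0 calls on these data. The simulated recovery therefore need not hold for these libraries. Log2 ratios of 2 genes in a library add 0.5 to each count. A correction for transcript length had been planned for them and could not be made, since the RefSeq table holds gene spans only. DESeq2 1.42.0, limma-voom 3.58.1, other scalings, no filter and leaving out each library were the alternatives. Coordinates are those of RefSeq on Sscrofa11.1, where 29862 of 29884 symbols matched, the 7 genes described here among them. The genes and lists were chosen with earlier results of these data known. Named beside these 7 are up to 8 of the 38 listed pathway genes, those with the smallest unadjusted p among genes averaging at least 1 in log2 CPM, and for each gene the 3 with the nearest profile. Genes named for their position or as cell type markers, and any pathway gene said to be so, fall outside that rule.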

Additional observations from a re-analysis of the deposited data

How the results depend on the processing

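No paired analysis was possible because the labels give the libraries of both groups no shared replicate numbers. Each title ends in a code whose meaning is not stated, and the codes of high replicate 2 and low replicate 2 begin with the same letter, so a shared source of these libraries cannot be told from the labels. The sign of each of the 7 log2 fold changes and of the 4 ratio differences was the same under every alternative run. Groups did not overlap for INHA, INHBA, INHBB, AMH, AMHR2 and the 4 ratios. For these, leaving out 1 library could not reverse the sign unless scaling shifted, so that part was fixed in advance. Of the 7, INHBB (-1.68, adjusted p = 0.0133) and AMHR2 (1.39, adjusted p = 0.00457) passed the threshold with DESeq2. DESeq2 called 1 of them higher and 1 lower. Over all genes, 0 called higher and 0 lower became 767 and 725 with DESeq2, 2 and 3 without the filter on low counts, and ranged from 0 to 363 and from 0 to 591 with 1 library left out, the upper values without high replicate 1. In the pathway list DESeq2 called 4 higher and 1 lower, against 10.4% of all genes tested. The list's median log2 fold change was 0.048 without the filter, 0.077 with limma-voom and from 0.050 (without high replicate 2) to 0.27 with 1 library left out. The cause was not tested, except that the unfiltered fit tested more genes. The ratio with and without length correction was not run. With 2 libraries a group, 1 library left out leaves a lone library assumed to vary like the other group. Leaving out 1 library gave a difference of 0.64 to 1.46 for the INHBA to INHBB ratio.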
